A study of Mus musculus with 21 samples.

Results

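Peritubular myoid (PTM) cells, the flat contractile cells that wrap the seminiferous tubules of the testis, were set against tracheal smooth muscle cells (TSMC), the contractile cells of the airway wall, by the levels of their mature microRNAs (miRNAs). The libraries were taken by the cell type in their labels, 3 for PTM cells and 3 for TSMC, which made 6 of the 21 small RNA libraries of the series. Both types were primary cells of untreated C57BL/6J mice, cultured in DMEM/F12 to which fetal bovine serum was added. PTM cells were isolated from testis by earlier methods, whereas TSMC were bought from a supplier, so the tissue and the source of the cells cannot be told apart in this comparison. Vascular smooth muscle cells (VSMC) and intestinal smooth muscle cells (ISMC), 3 libraries each of the same strain, medium and supplier, served to find what was particular to the tracheal type. Nothing in the labels tells whether libraries of 1 type stem from different animals or cultures, so p-values measure only the spread between these samples, which may be technical.

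A mature miRNA guides an Argonaute protein to messenger RNAs, which it recognises mainly through its seed, bases 2 to 8, and whose translation and stability it lowers. miRNAs with the same seed are expected to bind many of the same messages. Some miRNA genes lie inside the Hox clusters, the gene arrays that record the position of a cell along the body axis, and share the regional activity of their Hox neighbours. Other miRNAs are used as marks of a cell type, such as miR-143 and miR-145 in smooth muscle, miR-126 in endothelium and miR-206 in skeletal muscle. PTM cells and TSMC are both contractile and both make smooth muscle actin, yet they arise in different organs.

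The miRNAs on which the comparison turned are shown first, as RNA from 5′ to 3′ with the seed in capitals. Mature sequences and positions are from RefSeq on the mouse build GRCm38.p6, whose table held 714 of the 846 miRNAs tested, and gene neighbours are from GENCODE on the same build. The Hox-linked miRNAs come in 2 pairs of near relatives and 1 single gene, shown to compare the relatives base by base.
miR-10a-5p: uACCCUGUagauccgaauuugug
miR-10b-5p: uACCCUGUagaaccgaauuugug
miR-196a-5p: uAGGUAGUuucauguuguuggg
miR-196b-5p: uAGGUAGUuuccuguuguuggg
miR-615-5p: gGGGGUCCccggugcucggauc
miR-10a-5p lies at chr11:96317186-96317208 on the plus strand, between Hoxb5 and Hoxb4. miR-10b-5p lies at chr2:74726074-74726096 on the plus strand, in an intron of Hoxd4 and of the longer Hoxd3 model. Counted from 1 at the 5′ end, the change from miR-10a-5p to miR-10b-5p is U12A and that from miR-196a-5p to miR-196b-5p is A12C, both outside the seed. miR-196a-5p has 2 genes, at chr11:96265187-96265208 between Hoxb13 and Hoxb9 and at chr15:102973365-102973386 between Hoxc10 and Hoxc9. miR-196b-5p lies at chr6:52230129-52230150 on the minus strand, in an annotated exon of Hoxa9. miR-615-5p lies at chr15:103014926-103014947 on the plus strand, in an intron of Hoxc5.

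A second set holds the miRNAs that set TSMC apart from the other smooth muscle types outside the Hox clusters.
miR-204-5p: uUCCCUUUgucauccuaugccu
miR-126a-3p: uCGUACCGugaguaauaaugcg
miR-146a-5p: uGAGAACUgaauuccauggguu
miR-184-3p: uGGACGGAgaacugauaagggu
miR-455-3p: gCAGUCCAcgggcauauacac
miR-338-5p: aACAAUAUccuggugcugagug
Of these, miR-204-5p (chr19:22750610-22750631, plus strand) lies in an intron of Trpm3, miR-126a-3p (chr2:26591402-26591423, plus strand) in an annotated exon of the endothelial gene Egfl7, miR-455-3p (chr4:63256904-63256924, plus strand) in an intron of the collagen gene Col27a1 and miR-338-5p (chr11:120014816-120014837, minus strand) in an intron of Aatk. No gene of the kinds searched was annotated over miR-146a-5p (chr11:43374435-43374456, minus strand) or miR-184-3p (chr9:89802263-89802284, minus strand).

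Another set holds miRNAs of the gonadal, X-linked, Dlk1-Dio3 and muscle lists described further on, 2 higher and 3 lower in PTM cells.
miR-202-3p: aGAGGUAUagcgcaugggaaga
miR-470-5p: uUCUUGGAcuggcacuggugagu
miR-433-3p: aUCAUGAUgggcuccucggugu
miR-431-5p: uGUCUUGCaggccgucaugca
miR-206-3p: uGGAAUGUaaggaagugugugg
miR-202-3p lies at chr7:139957695-139957716 and miR-470-5p at chrX:66813995-66814017, both on the minus strand. miR-433-3p (chr12:109591781-109591802) and miR-431-5p (chr12:109590459-109590479) are neighbours in the imprinted Dlk1-Dio3 region, and miR-206-3p lies at chr1:20679055-20679076, all on the plus strand.

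The 6 libraries held 18.1 to 20.9 M tags each (M, 1e6), of which 6.18 to 8.62 M were mature miRNAs in PTM cells and 6.03 to 9.00 M in TSMC. The deposited tag counts were scaled to counts per 1e6 mature tags (CPM) with TMM, a factor that evens out the bulk of the miRNAs between libraries. Ranked over the miRNAs tested, libraries of PTM cells correlated with those of TSMC at a mean Spearman's rho of 0.734, against 0.938 within PTM cells and 0.937 within TSMC, as a description over shared miRNAs. TSMC correlated with VSMC at 0.908 and with ISMC at 0.920. The smooth muscle markers were both arms of miR-143 and miR-145a. They summed to 19827 to 34055 CPM in PTM libraries and 14523 to 20437 CPM in TSMC libraries, so both types carried them. In PTM libraries an X-linked pair, used further on to mark Sertoli and germ cells of the tubule, summed to 37560 to 89193 CPM. The same pair had 17.9 to 66.2 CPM in TSMC libraries. How well the cultures matched their labels was not tested. In these 6 libraries 1 tag was worth 0.0994 to 0.174 CPM, so levels below 1 CPM rest on few tags and their fold changes are imprecise.

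Over the 846 mature miRNAs tested, 338 passed in PTM cells against TSMC (40.0%; edgeR quasi-likelihood test, Benjamini-Hochberg adjusted p under 0.05), 193 of them higher (22.8%) and 145 lower (17.1%) in PTM cells. The 3 PTM libraries lay wholly above the 3 TSMC libraries for 247 miRNAs (29.2%) and wholly below them for 206 (24.3%). The median log2 fold change over all tested miRNAs was 0.21 with TMM and -0.15 with RLE scaling, which called 170 higher and 199 lower, so small differences are best read against that median. In the plot of fold change against level, many members of the X-linked testis cluster lay high in the cloud and many of the Dlk1-Dio3 cluster low. The gonadal miR-202-3p, at 12.03, lay above the highest member of the X-linked cluster, at 11.54.

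**Figure D1:**
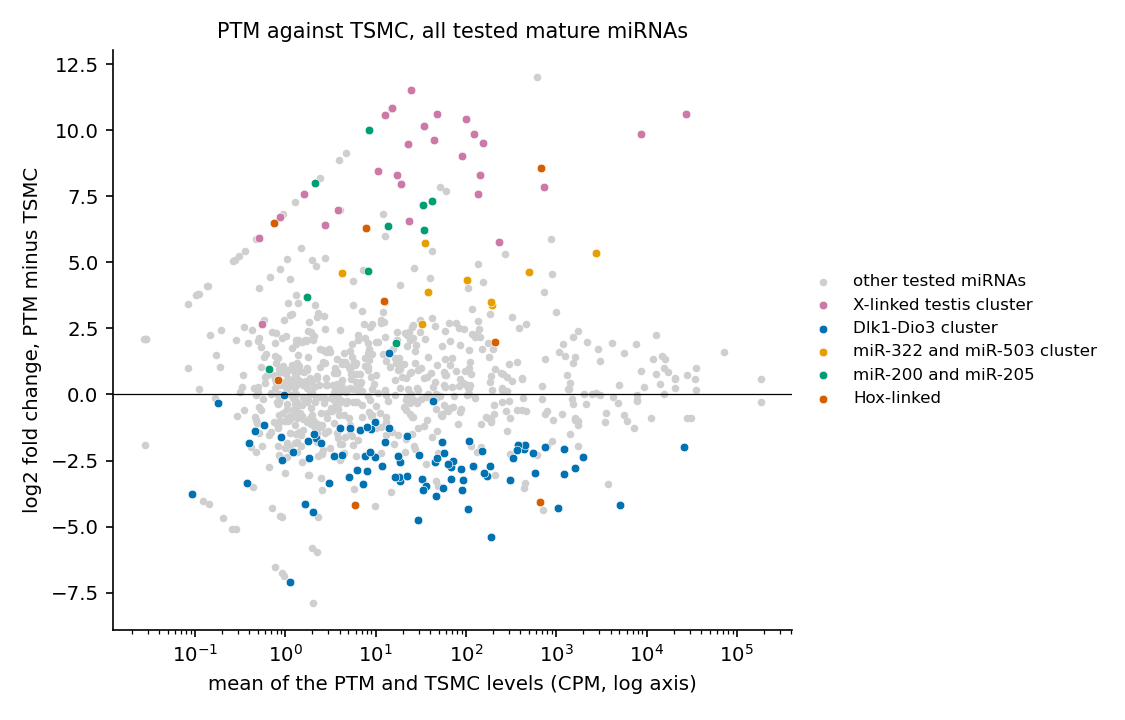
Log2 fold change of PTM cells minus TSMC (vertical axis) against the mean level of both types in CPM (horizontal log axis) for the tested mature miRNAs, 1 point each, with 5 lists in colour. The X-linked testis cluster lies between 2.68 and 11.54, whereas the Dlk1-Dio3 cluster lies mostly below 0, between -7.08 and 1.57.

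To find what was particular to the tracheal type, TSMC were set against the mean of VSMC and ISMC, a contrast equal to the difference between the PTM comparisons with those types. It called 20 of 846 miRNAs (2.36%), 12 higher (1.42%) and 8 lower (0.946%) in TSMC, and 135 had an unadjusted p under 0.05. The count was 13 without the first TSMC library and 91 in a fit of the 3 types alone. TSMC differed from VSMC in 28 miRNAs (3.31%; 14 without the second VSMC library), of which 18 were higher (2.13%) and 10 lower (1.18%) in TSMC. They differed from ISMC in 8 (0.946%), of which 1 was higher (0.118%) and 7 lower (0.827%). All 3 TSMC libraries lay above the 6 VSMC and ISMC libraries for 45 miRNAs (5.32%) and below them for 55 (6.50%). PTM cells differed from VSMC in 365 miRNAs (43.1%, with 25.2% higher and 18.0% lower) and from ISMC in 343 (40.5%, with 23.4% higher and 17.1% lower). Only 7 miRNAs passed in all 3 of these tests in the same direction, miR-184-3p higher and miR-10b-5p, miR-196b-5p, miR-615-5p, miR-204-5p, miR-126a-3p and miR-146a-5p lower in TSMC. miR-615-5p fell under the 50 CPM minimum of the naming rule and was added after its values were seen. These 7 are described first, with the PTM libraries beside them. Each PTM comparison shares the TSMC libraries with the tracheal contrast, so a low TSMC value enters both.

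Of the 7 miRNAs, 3 were Hox-linked. miR-10b-5p had 1394, 1821 and 822 CPM in PTM libraries, against 2.37, 3.28 and 5.02 CPM in TSMC libraries. It had 172, 127 and 153 CPM in VSMC and 58.3, 73.3 and 55.4 CPM in ISMC. No groups overlapped, and TSMC held the lowest level of the 4 types. The log2 fold change was 8.56 ± 0.69 in PTM cells against TSMC (SE of the fit; edgeR adjusted p = 5.8e-09) and -4.76 ± 0.57 in TSMC against VSMC and ISMC (edgeR adjusted p = 1.2e-05).

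Its near relative miR-10a-5p ran the other way. miR-10a-5p had 85.9, 87.4 and 48.0 CPM in PTM libraries, against 1085, 1218 and 1418 CPM in TSMC libraries, and fell by 4.07 ± 0.52 on the log2 scale in PTM cells (edgeR adjusted p = 2.9e-06). It had 4155 to 5502 CPM in VSMC and 1857 to 2224 CPM in ISMC, so TSMC held the lowest level of the 3 smooth muscle types. That contrast missed the threshold at -1.33 ± 0.42 (edgeR adjusted p = 0.10) but passed with RLE scaling (-1.24, edgeR adjusted p = 0.040), and TSMC against VSMC alone passed at -1.98 ± 0.47 (edgeR adjusted p = 0.017). The passenger arm miR-10a-3p had 0.611, 0.869 and 0.327 CPM in PTM libraries, against 8.45, 10.5 and 14.9 CPM in TSMC libraries (log2 fold change -4.20 ± 0.70).

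Both miRNAs carry the seed ACCCUGU, and their summed level in PTM cells overlapped that in TSMC. The sum was 1480, 1909 and 870 CPM in PTM libraries and 1087, 1221 and 1423 CPM in TSMC libraries. It was 4282 to 5675 CPM in VSMC and 1915 to 2297 CPM in ISMC, all above the TSMC libraries. Between PTM cells and TSMC the make-up of the sum differed. In PTM libraries miR-10b-5p tags amounted to 1622%, 2083% and 1712% of miR-10a-5p tags, against 0.218%, 0.270% and 0.354% in TSMC libraries. VSMC had 3.05% to 3.14% and ISMC 2.92% to 3.30%, a narrow band in 6 libraries whose miR-10a-5p levels differed. The 2 miRNAs differ at 1 base, and whether tags of 1 were counted as the other was not tested in any type.

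**Figure D2:**
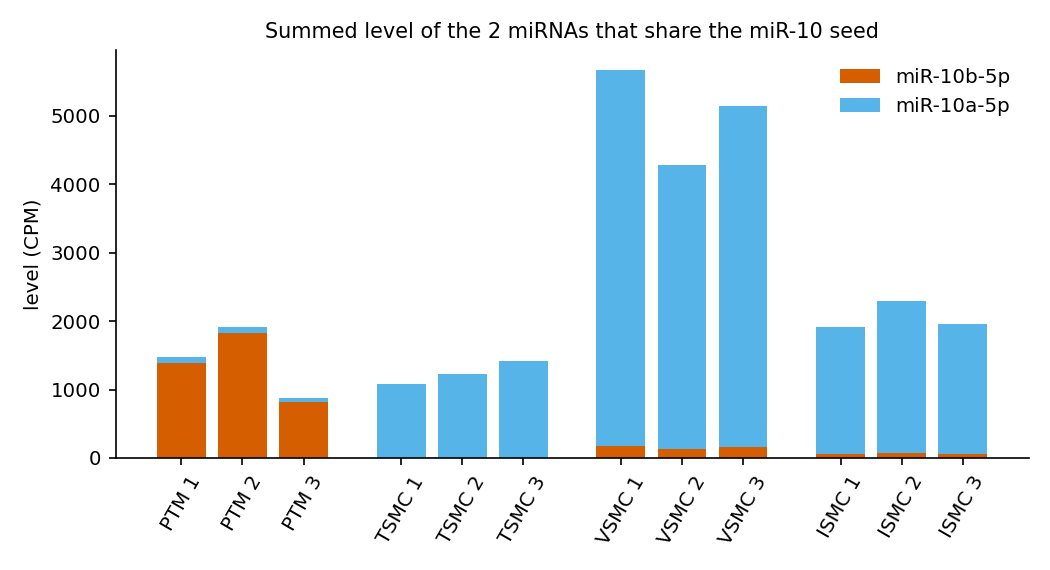
Stacked levels of miR-10b-5p and miR-10a-5p in CPM (vertical axis) in each library of PTM cells, TSMC, VSMC and ISMC (horizontal axis). PTM bars are nearly all miR-10b-5p and TSMC bars nearly all miR-10a-5p, at sums of 870 to 1909 CPM in PTM cells and 1087 to 1423 CPM in TSMC.

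miR-196b-5p, whose gene overlaps Hoxa9, had 30.5, 24.9 and 12.1 CPM in PTM libraries, against 2.87, 0.795 and 2.26 CPM in TSMC libraries. VSMC had 60.6 to 98.0 CPM and ISMC 46.1 to 60.8 CPM, so PTM cells lay between TSMC and the other smooth muscle types. The log2 fold change was 3.52 ± 0.66 in PTM cells against TSMC (edgeR adjusted p = 0.00020) and -5.03 ± 0.67 in TSMC against VSMC and ISMC (edgeR adjusted p = 3.9e-05). Against VSMC, PTM cells were lower by the same test (log2 fold change -1.79 ± 0.59, edgeR adjusted p = 0.018). miR-196a-5p, of the same seed AGGUAGU, had 401, 436 and 180 CPM in PTM libraries, against 87.5, 81.2 and 86.4 CPM in TSMC libraries (log2 fold change 1.99 ± 0.62, edgeR adjusted p = 0.014). Its TSMC libraries were also below all 6 VSMC and ISMC libraries, at 173 to 251 CPM, without passing the test (-1.31 ± 0.56, edgeR adjusted p = 0.26).

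miR-615-5p, of the Hoxc5 intron, had 17.1, 11.3 and 17.6 CPM in PTM libraries, against 0.169, 0.199 and 0.162 CPM in TSMC libraries, which rest on 1, 2 and 1 tags. VSMC had 8.62 to 16.2 CPM and ISMC 14.6 to 18.3 CPM, all above TSMC. The summed tags gave a ratio of 85.7 in PTM cells over TSMC, with an exact 95% interval of 33.1 to 317 for counting error only. In TSMC against VSMC and ISMC the log2 fold change was -6.17 ± 0.66 (edgeR adjusted p = 4.3e-06).

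Over the whole Hox-linked list, 8 of 9 entries were tested. In PTM cells against TSMC 5 were higher, both arms of miR-10a were lower and miR-196a-1-3p did not pass (0.54 ± 0.95). Over all miRNAs tested 22.8% were higher and 17.1% lower. The list median was 2.76 against 0.21 over all miRNAs. In TSMC against VSMC and ISMC 3 were lower, none was higher and 5 did not pass, with a median of -2.86 against 0.00. In that contrast 0.946% of all miRNAs tested were lower and 1.42% higher. As a share of all mature tags the list took 0.156%, 0.159% and 0.107% in PTM libraries and 0.117%, 0.147% and 0.152% in TSMC libraries, which overlapped. VSMC had 0.523% to 0.593% and ISMC 0.220% to 0.288%, all above the TSMC libraries.

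**Figure D3:**
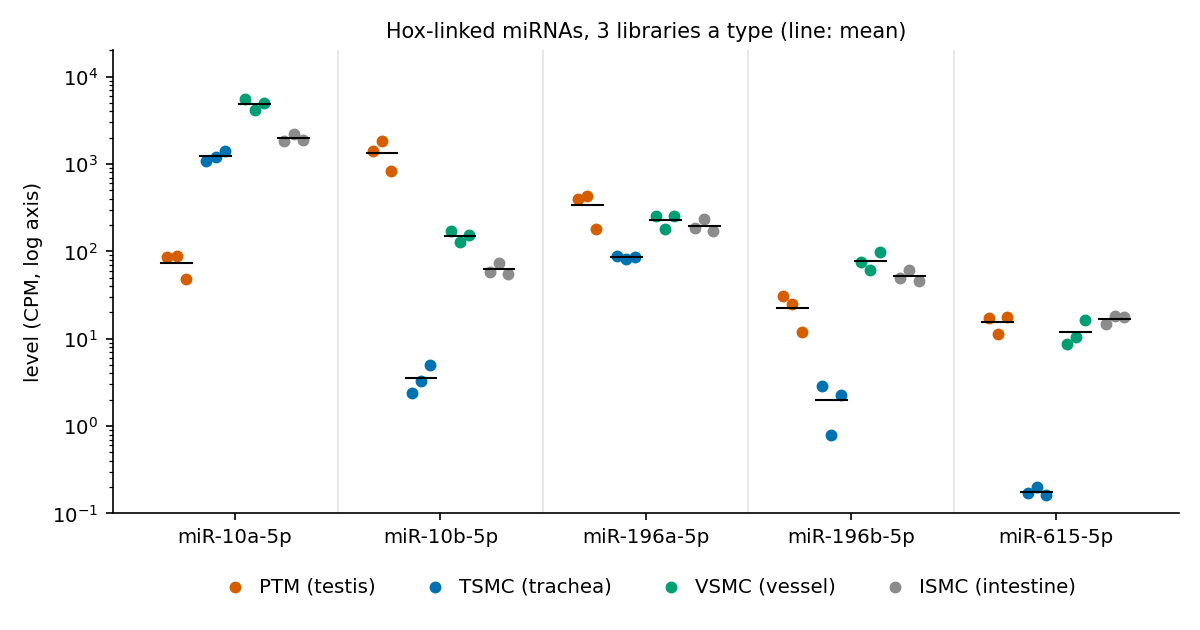
Level in CPM (vertical log axis) of 5 Hox-linked miRNAs (horizontal axis) in the 3 libraries of PTM cells, TSMC, VSMC and ISMC, with the mean as a line. TSMC held the lowest points of miR-10b-5p (2.37 to 5.02 CPM), miR-196a-5p, miR-196b-5p and miR-615-5p (0.162 to 0.199 CPM), whereas PTM cells held the lowest of miR-10a-5p.

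Outside the Hox clusters, TSMC were low in miR-204-5p, miR-126a-3p and miR-146a-5p. miR-204-5p, best known from pigment epithelium and other Trpm3-expressing tissues, had 380, 839 and 375 CPM in PTM libraries, against 16.2, 16.0 and 7.77 CPM in TSMC libraries. VSMC had 180 to 227 CPM and ISMC 104 to 168 CPM, so all TSMC libraries lay below all libraries of the other 3 types. In log2 terms the fold change was 5.31 ± 0.63 in PTM cells against TSMC (edgeR adjusted p = 1.3e-06) and -3.62 ± 0.55 in TSMC against VSMC and ISMC (edgeR adjusted p = 0.00017). The other arm, miR-204-3p, had 27.6, 77.0 and 48.5 CPM in PTM libraries, against 1.35, 2.49 and 1.62 CPM in TSMC libraries (log2 fold change 4.78 ± 0.86, edgeR adjusted p = 0.00014).

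miR-126a-3p, the miRNA of endothelial cells made from Egfl7, had 2030, 2244 and 1073 CPM in PTM libraries, against 251, 218 and 145 CPM in TSMC libraries. VSMC had 2965 to 3739 CPM and ISMC 1057 to 1369 CPM. PTM cells did not differ past the threshold from those types (log2 fold change -0.95 ± 0.54 against VSMC and 0.52 ± 0.54 against ISMC, edgeR adjusted p = 0.17 and 0.49). By the fit, log2 fold changes were 3.12 ± 0.58 in PTM cells against TSMC (edgeR adjusted p = 0.00021) and -3.34 ± 0.56 in TSMC against VSMC and ISMC (edgeR adjusted p = 0.00059). The other arm, miR-126a-5p, followed with 2.42 ± 0.64 and -2.55 ± 0.59 (edgeR adjusted p = 0.0044 and 0.017), and the second value lost its call without the first or the third TSMC library (edgeR adjusted p = 0.089 and 0.13). Both arms are also the whole endothelial marker set, which summed to 1078 to 2251 CPM in PTM cells and 145 to 253 CPM in TSMC. The part of endothelial cells in the cultures was not tested, and fewer cells of a type cannot be told apart from less miRNA per cell in such bulk samples.

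miR-146a-5p, a brake on inflammatory signalling, had 433, 1016 and 283 CPM in PTM libraries, against 77.6, 73.7 and 74.4 CPM in TSMC libraries. VSMC had 327 to 368 CPM and ISMC 501 to 633 CPM, all above TSMC. The log2 fold change was 2.94 ± 0.58 in PTM cells against TSMC (edgeR adjusted p = 0.00039) and -2.57 ± 0.54 in TSMC against VSMC and ISMC (edgeR adjusted p = 0.0068), the first value being 2.27 without the second PTM library. miR-146b-5p, of the same seed GAGAACU, had 287, 415 and 130 CPM in PTM libraries and 73.8, 75.1 and 67.6 CPM in TSMC libraries without passing the test (1.94 ± 0.84, edgeR adjusted p = 0.07). In contrast to miR-146a-5p it had no low point in TSMC, since VSMC had 33.0 to 41.3 CPM and ISMC 7.48 to 24.9 CPM.

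miR-184-3p, known from the lens and cornea, was the 1 miRNA that was higher in TSMC than in each of the other types by all 3 tests. It had 40.9, 67.8 and 34.0 CPM in PTM libraries, against 204, 239 and 209 CPM in TSMC libraries. VSMC had 15.7 to 40.7 CPM and ISMC 24.1 to 43.8 CPM. Its log2 fold change was -2.19 ± 0.45 in PTM cells against TSMC (edgeR adjusted p = 0.00050) and 2.86 ± 0.36 in TSMC against VSMC and ISMC (edgeR adjusted p = 2.0e-05). All 3 TSMC libraries lay above the 9 other libraries, and PTM cells did not differ past the threshold from VSMC or ISMC (0.74 ± 0.43 and 0.60 ± 0.43, edgeR adjusted p = 0.18 and 0.30).

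miR-455-3p, made from an intron of a cartilage collagen gene, was also highest in TSMC. It had 77.8, 116 and 128 CPM in PTM libraries, against 321, 727 and 489 CPM in TSMC libraries, where VSMC had 40.8 to 63.9 CPM and ISMC 134 to 239 CPM. Its log2 fold change was -2.25 ± 0.43 in PTM cells against TSMC (edgeR adjusted p = 0.00027) and 2.37 ± 0.34 in TSMC against VSMC and ISMC (edgeR adjusted p = 0.00010), although TSMC against ISMC alone did not pass (1.47 ± 0.42, edgeR adjusted p = 0.13). miR-455-5p moved the same way, at -1.91 ± 0.54 and 2.22 ± 0.43 (edgeR adjusted p = 0.0071 and 0.0030). The first value was -2.55 without the second PTM library, and the second lost its call with tags of all classes as library size (edgeR adjusted p = 0.055). The cartilage miRNA miR-140-5p, at 56.5, 75.8 and 43.6 CPM in PTM libraries against 175, 315 and 209 CPM in TSMC libraries, was lower in PTM cells (-1.99 ± 0.48, edgeR adjusted p = 0.0022) and did not differ past the threshold between TSMC and the other smooth muscle types (-0.31 ± 0.41, edgeR adjusted p = 0.78). Of the 4 tested miR-140 and miR-455 arms 3 were lower and none higher in PTM cells, against 17.1% lower over all miRNAs tested. The list median was -1.95. The cartilage marker set, both arms of miR-140, summed to 134 to 225 CPM in PTM cells, 376 to 696 CPM in TSMC, 632 to 1137 CPM in VSMC and 288 to 448 CPM in ISMC. The part of cartilage cells in these differences was not tested.

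miR-338-5p, of the Aatk intron, had 31.4, 26.8 and 21.9 CPM in PTM libraries, against 75.7, 73.7 and 60.5 CPM in TSMC libraries. VSMC had 2.34 to 3.73 CPM and ISMC 24.1 to 29.5 CPM, so TSMC were highest and VSMC lowest. The log2 fold change was -1.39 ± 0.49 in PTM cells against TSMC (edgeR adjusted p = 0.028; 0.057 to 0.085 when 1 of 4 of the libraries was left out) and 2.90 ± 0.40 in TSMC against VSMC and ISMC (edgeR adjusted p = 6.1e-05). PTM cells were higher than VSMC in the same fit (3.04 ± 0.52, edgeR adjusted p = 6.6e-05), and TSMC against ISMC did not pass (1.37 ± 0.49, edgeR adjusted p = 0.28).

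**Figure D4:**
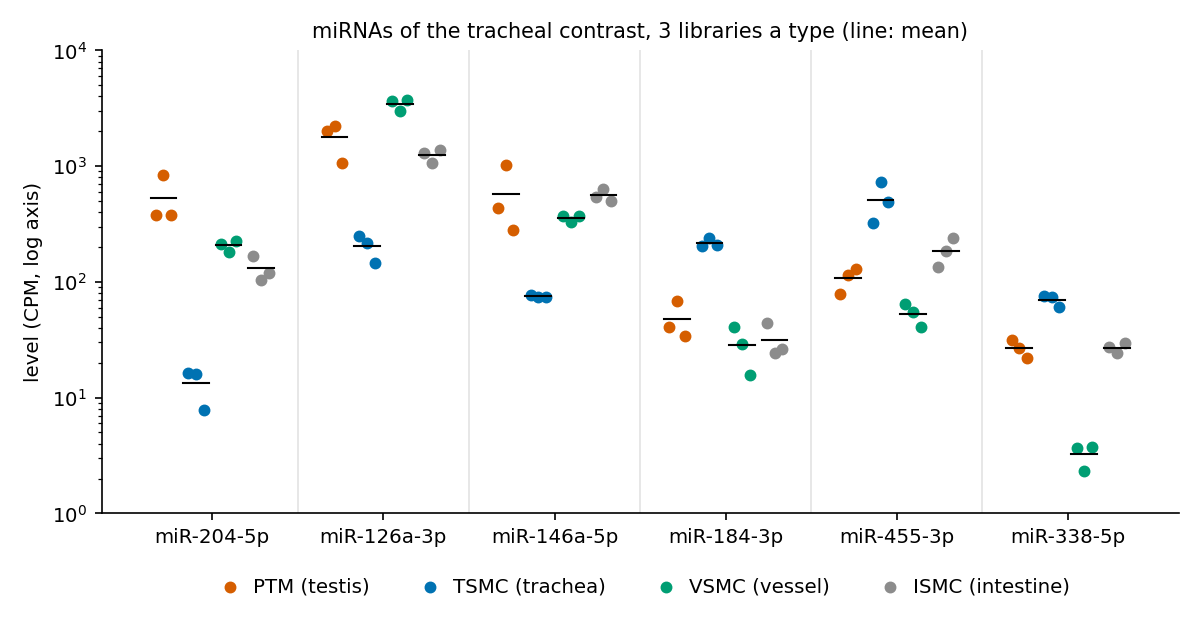
Level in CPM (vertical log axis) of 6 miRNAs (horizontal axis) in the 3 libraries of PTM cells, TSMC, VSMC and ISMC, with the mean as a line. TSMC held the lowest points of miR-204-5p (7.77 to 16.2 CPM), miR-126a-3p and miR-146a-5p, and the highest of miR-184-3p (204 to 239 CPM), miR-455-3p and miR-338-5p.

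Among muscle miRNAs, the most abundant smooth muscle miRNA did not pass the test and its partner did. miR-143-3p, which promotes the contractile state, had 27241, 30193 and 17272 CPM in PTM libraries and 14823, 13557 and 19967 CPM in TSMC libraries, which overlapped (0.63 ± 0.59, edgeR adjusted p = 0.42). miR-145a-5p, made from the same primary transcript, had 2290, 3840 and 2543 CPM in PTM libraries, against 241, 959 and 460 CPM in TSMC libraries, and was higher in PTM cells (2.38 ± 0.73, edgeR adjusted p = 0.013). The value was 1.94 without the first TSMC library and 1.84 with tags of all classes as library size, where the call was lost (edgeR adjusted p = 0.061 and 0.053), and 2.97 without the second TSMC library. miR-145a-3p also passed (1.39 ± 0.53, edgeR adjusted p = 0.043), a call lost with RLE scaling (edgeR adjusted p = 0.074) and without any 1 of 5 of the 6 libraries. miR-143-5p, at most 0.809 CPM in both types, did not pass. The list of 4 had 2 higher (1 with RLE scaling, 0 with tags of all classes), none lower and a median of 1.01. Over all miRNAs tested 22.8% were higher and 17.1% lower.

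The miRNAs of striated muscle moved in opposite directions. miR-206-3p, a skeletal muscle miRNA, had 109, 88.5 and 14.0 CPM in PTM libraries, against 922, 653 and 866 CPM in TSMC libraries (-3.53 ± 0.76, edgeR adjusted p = 0.00085, and -4.13 without the first PTM library). VSMC had 646 to 837 CPM and ISMC 517 to 636 CPM, and TSMC did not differ from them past the threshold (0.30 ± 0.59, edgeR adjusted p = 0.86). miR-133a-3p, its usual companion in striated muscle, had 274, 261 and 250 CPM in PTM libraries, against 14.4, 4.28 and 6.79 CPM in TSMC libraries (4.95 ± 0.76, edgeR adjusted p = 2.0e-05). miR-1a-3p had at most 15.2 CPM in any of the 6 libraries and did not pass (0.18 ± 0.91, of either sign depending on the scaling). The cardiac and slow-muscle miRNA miR-499-5p was lower in PTM cells (-4.23 ± 1.15, edgeR adjusted p = 0.0061), with 0.611, 0.695 and 1.63 CPM in PTM libraries against an uneven 44.9, 1.79 and 9.38 CPM in TSMC libraries, and the call was lost without the first TSMC library (-2.54, edgeR adjusted p = 0.057).

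Among miRNAs linked to the dividing, non-contractile state of smooth muscle, miR-21a-5p had 10776 to 19504 CPM in PTM cells and 11277 to 13197 CPM in TSMC and did not pass (0.41 ± 0.48, edgeR adjusted p = 0.53). miR-31-5p had 1024, 590 and 526 CPM in PTM libraries, against 2480, 2894 and 2906 CPM in TSMC libraries, and was lower in PTM cells (-1.95 ± 0.57, edgeR adjusted p = 0.0087). miR-221-3p and miR-222-3p did not pass (-0.96 ± 0.63 and -0.99 ± 0.60, edgeR adjusted p = 0.23 and 0.19). Both passed as lower with RLE scaling (-1.36 and -1.37, edgeR adjusted p = 0.037 and 0.032). Over this list of 8, 2 were lower and 1 was higher in PTM cells, near the 17.1% lower and 22.8% higher of all miRNAs tested, with a median of -0.90. With RLE scaling 5 were lower and 1 higher. The mesenchymal miR-199 and miR-214 had 1 of 5 lower (3 with RLE scaling) and 4 not past the threshold, and 4 of 5 had PTM libraries wholly below TSMC libraries, against 24.3% of all. The 1 called was miR-199a-5p at 470, 416 and 327 CPM in PTM libraries against 976, 1913 and 1220 CPM in TSMC libraries (-1.76 ± 0.61, edgeR adjusted p = 0.025). That call was lost without the second PTM, the third PTM or the second TSMC library (edgeR adjusted p = 0.056, 0.078 and 0.073).

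On the high side of PTM cells, testicular miRNAs made up the widest gaps. miR-202-3p, a gonadal miRNA, had 1386, 1479 and 801 CPM in PTM libraries, against 0, 0.199 and 0.647 CPM in TSMC libraries. The summed tags gave a ratio of 4508 with an exact 95% interval of 2071 to 12280 for counting error only. The log2 fold change was 12.03 ± 1.24 (edgeR adjusted p = 4.6e-07), or 13.09 without the third TSMC library. The other arm, miR-202-5p, had 118, 153 and 92.4 CPM in PTM libraries, against 0.338, 0.298 and 1.13 CPM in TSMC libraries.

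miRNAs of the X-linked cluster between Slitrk2 and Fmr1, which is known for testis expression, were higher in PTM cells in 27 of 28 tested members, against 22.8% of all miRNAs tested, and the remaining miR-741-5p did not pass. Members of the cluster also mark Sertoli and germ cells, other cells of the tubule. The pair used as their markers, miR-470-5p and miR-741-3p, summed to 37560 to 89193 CPM in PTM cells and 17.9 to 66.2 CPM in TSMC. The part of Sertoli or germ cells in this difference was not tested. The list median was 8.74, or 8.15 with its 7 members at 0 in TSMC put at the bound that 3 tags over the group allow. The cluster took 4.38%, 7.96% and 5.47% of mature tags in PTM libraries, against 0.00451%, 0.00431% and 0.0135% in TSMC libraries. Its largest member, miR-470-5p, had 37343, 88634 and 38324 CPM in PTM libraries, against 22.3, 17.5 and 65.4 CPM in TSMC libraries (10.61 ± 0.75, edgeR adjusted p = 1.6e-09), or 11.36 without the third TSMC library. miR-465a-3p, miR-465b-3p and miR-465c-3p have the same mature sequence and form a joint entry. It had 12385 to 26488 CPM in PTM cells and 11.4 to 31.2 CPM in TSMC (9.86 ± 0.73, edgeR adjusted p = 1.8e-09).

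Several members rested on very few tags in TSMC, and their ratios are wide. The intervals given cover counting error only and not the spread between libraries. The summed tags of miR-547-3p gave a ratio of 1454 (exact 95% interval 497 to 7055) on 3 tags, and those of miR-742-3p a ratio of 942 (260 to 7782) on 2 tags. miR-465d-3p and miR-743a-5p had 1 tag each in TSMC, with ratios of 2079 (373 to 82170) and 1468 (263 to 58040). miR-743a-3p, miR-741-3p and miR-465b-5p, with 5 to 9 tags in TSMC, had ratios of 1052, 746 and 565, and miR-871-5p had 110 to 591 CPM in PTM cells and 0.338 to 1.94 CPM in TSMC. In spite of these gaps, the trace in TSMC was above that in the other smooth muscle types for miR-470-5p, at 5.05 to 8.57 CPM in VSMC and 7.89 to 13.0 CPM in ISMC (2.12 ± 0.42, edgeR adjusted p = 0.0036), and for the joint miR-465 entry (1.84 ± 0.42, edgeR adjusted p = 0.014). Both of these calls were lost without the third TSMC library (1.31 and 1.28, edgeR adjusted p = 0.13 and 0.18) and with tags of all classes as library size (edgeR adjusted p = 0.056 and 0.12).

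Markers of other cell types also differed. Of the 10 tested miR-200, miR-141, miR-429, miR-203 and miR-205 arms, which mark epithelium, 9 were higher in PTM cells. Over all miRNAs tested 22.8% were higher. The list median was 6.29, or 5.58 with the 2 members at 0 in TSMC put at their bound. miR-200b-3p had 48.5, 160 and 40.0 CPM in PTM libraries, against 0.338, 0.895 and 0.162 CPM in TSMC libraries (7.33 ± 0.98, edgeR adjusted p = 5.2e-06), or 6.44 without the second PTM library and 8.20 without the second TSMC library. The epithelial marker set summed to 84.4 to 286 CPM in PTM cells and 3.21 to 12.4 CPM in TSMC, with miR-141-3p at 0 in TSMC, VSMC and ISMC and miR-205-5p not past the threshold (0.95 ± 0.80). The same set summed to 10.4 to 12.4 CPM in VSMC and 8.34 to 16.9 CPM in ISMC, and 1 TSMC library lay below all of these at 3.21 CPM. Of 6 tested blood cell miRNAs 4 were higher in PTM cells, against the 22.8% of all miRNAs tested. Among them was miR-155-5p at 3570, 5161 and 1662 CPM in PTM libraries against 1039, 997 and 621 CPM in TSMC libraries (1.97 ± 0.50, edgeR adjusted p = 0.0032). The red cell miRNA miR-451a had 53.0, 108 and 655 CPM in PTM libraries and 332, 204 and 147 CPM in TSMC libraries, which overlapped. The blood marker set, which includes miR-451a, summed to 398 to 928 CPM in PTM cells and 162 to 347 CPM in TSMC. For this set VSMC had 37.4 to 175 CPM and ISMC 97.4 to 180 CPM, which overlapped TSMC. The part of epithelial or blood cells in these differences was not tested.

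The X-linked miR-322 and miR-503 cluster, which restrains the cell cycle, was higher in PTM cells in 9 of 9 tested members. Over all miRNAs tested 22.8% were higher, and the list median was 4.34. miR-351-5p had 4206, 6885 and 5244 CPM in PTM libraries, against 161, 126 and 110 CPM in TSMC libraries (5.36 ± 0.74, edgeR adjusted p = 6.4e-06). miR-322-5p had 1000, 1250 and 630 CPM in PTM libraries, against 35.3, 37.4 and 43.8 CPM in TSMC libraries (4.63 ± 0.59, edgeR adjusted p = 2.9e-06). It shares the seed AGCAGCA with miR-497a-5p, which had 2142, 1606 and 1419 CPM in PTM libraries, against 65.7, 76.3 and 74.7 CPM in TSMC libraries (4.57 ± 0.43, edgeR adjusted p = 8.3e-08). miR-16-5p and miR-15a-5p, of the same seed, were higher in PTM cells by 1.47 ± 0.41 and 1.82 ± 0.44, whereas miR-15b-5p, the most abundant of the family in TSMC, did not pass (0.07 ± 0.41, of either sign depending on the scaling). The call of miR-16-5p was lost with tags of all classes as library size (edgeR adjusted p = 0.075). Over the 6 miRNAs of this seed the summed level was 8326, 8650 and 5631 CPM in PTM libraries, against 3045, 3672 and 3816 CPM in TSMC libraries, without overlap. The large changes of single members thus came to a smaller change of the seed as a whole.

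On the low side of PTM cells was the imprinted Dlk1-Dio3 cluster, a long array of miRNAs made from the maternal chromosome. It had 68 of 88 tested members lower and none higher, and 20 did not pass. Over all miRNAs tested 17.1% were lower. The list median was -2.41, and 72 of 88 had PTM libraries wholly below TSMC libraries, against 24.3% of all miRNAs tested. The cluster took 1.33%, 1.05% and 1.33% of mature tags in PTM libraries, against 8.49%, 7.52% and 7.12% in TSMC libraries. In TSMC against VSMC and ISMC none of the 88 passed, with a median of -0.52, where 2.36% of all miRNAs tested passed. An unadjusted p under 0.05 was found for 12 of the 88, and DESeq2 called 6, limma-voom 3 and edgeR with RLE scaling 1.

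Within the cluster, the most abundant member, miR-127-3p, had 11168, 11252 and 9403 CPM in PTM libraries, against 48730, 35377 and 41320 CPM in TSMC libraries (-1.98 ± 0.45, edgeR adjusted p = 0.0012). miR-433-3p had 631, 418 and 548 CPM in PTM libraries, against 12269, 9746 and 7011 CPM in TSMC libraries, and so differed more (-4.18 ± 0.53, edgeR adjusted p = 2.9e-06). miR-431-5p, its neighbour, had 125, 109 and 68.1 CPM in PTM libraries, against 2317, 1411 and 2199 CPM in TSMC libraries (-4.29 ± 0.52, edgeR adjusted p = 1.7e-06). The widest gap among members with at least 50 CPM was that of miR-668-3p, at 8.24, 4.52 and 13.2 CPM in PTM libraries against 477, 326 and 298 CPM in TSMC libraries (-5.40 ± 0.77, edgeR adjusted p = 8.7e-06). miR-431-3p, miR-323-5p, both arms of miR-412, miR-493-5p and miR-411-3p lay between -4.77 and -3.53. miR-485-5p and miR-411-5p, among the most abundant, were lower by smaller amounts (-2.77 ± 0.49 and -2.36 ± 0.49).

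Outside this cluster, miR-1983, a miRNA with no list here, was lower in PTM cells, at 78.3, 60.3 and 60.3 CPM in PTM libraries against 1204, 1428 and 1504 CPM in TSMC libraries (-4.38 ± 0.47, edgeR adjusted p = 5.1e-07). miR-149-5p, chosen after its values were seen, passed in the tracheal contrast (1.37, edgeR adjusted p = 0.020), a call lost with tags of all classes (edgeR adjusted p = 0.23) and without any 1 of 5 libraries (edgeR adjusted p = 0.058 to 0.12). It had 792, 385 and 747 CPM in PTM libraries against 8091, 6457 and 5777 CPM in TSMC libraries (-3.40 ± 0.43, edgeR adjusted p = 2.9e-06). VSMC had 1117 to 1452 CPM, below all TSMC libraries, and ISMC 3980 to 7547 CPM, which overlapped them. miR-298-5p and miR-296-3p of the imprinted Gnas region were lower in PTM cells too (-2.76 ± 0.38 and -1.94 ± 0.38, edgeR adjusted p = 6.4e-06 and 0.00037).

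Of the arms of miR-132 and miR-212, which respond to cAMP, 3 of 4 were higher in PTM cells, against 22.8% of all miRNAs tested. They were led by miR-212-3p at 798, 806 and 793 CPM in PTM libraries against 134, 116 and 130 CPM in TSMC libraries (2.66 ± 0.54, edgeR adjusted p = 0.00050). miR-132-3p and miR-212-3p summed to 121 to 141 CPM in TSMC, 51.3 to 55.9 CPM in VSMC and 47.4 to 51.7 CPM in ISMC. None of the 4 arms passed the tracheal contrast with TMM. With RLE scaling 3 were higher in TSMC (33 of all 846 called). DESeq2 called 4 (60 of all 846) and limma-voom 0. In PTM cells against TSMC 8 of 11 of the miR-30 family were higher and none lower, against 22.8% of all miRNAs tested higher. The median was 1.74, and with RLE scaling 5 were higher. Likewise 9 of 16 of the miR-17 clusters were higher and none lower, with a median of 1.29, and with all tags as library size 4 were higher. miR-99a-5p, at 23423, 27515 and 12461 CPM in PTM libraries against 4050, 4401 and 4878 CPM in TSMC libraries, was higher in PTM cells (2.25 ± 0.51, edgeR adjusted p = 0.0012), and its relative miR-99b-5p did not pass (-0.89 ± 0.46, edgeR adjusted p = 0.13) except under other scalings such as RLE (-1.26, edgeR adjusted p = 0.0063). None of the 7 miR-29 arms, the 11 arms of miR-23, miR-27 and miR-24 or the 5 miR-34b, miR-34c or miR-449 arms passed in either direction with TMM, with list medians of -0.28, 0.00 and -0.08. With RLE scaling 2 of the miR-29 arms, 0 of the miR-23, miR-27 and miR-24 arms and 1 of the miR-34 and miR-449 arms were lower. DESeq2 called 2, 1 and 1 of these lists, and an unadjusted p under 0.05 was found for 0, 1 and 1. Of the repeat-type miRNAs of the Sfmbt2 intron 3 of 42 were higher (1 with tags of all classes as library size) and none lower, against 22.8% higher and 17.1% lower over all miRNAs tested.

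**Figure D5:**
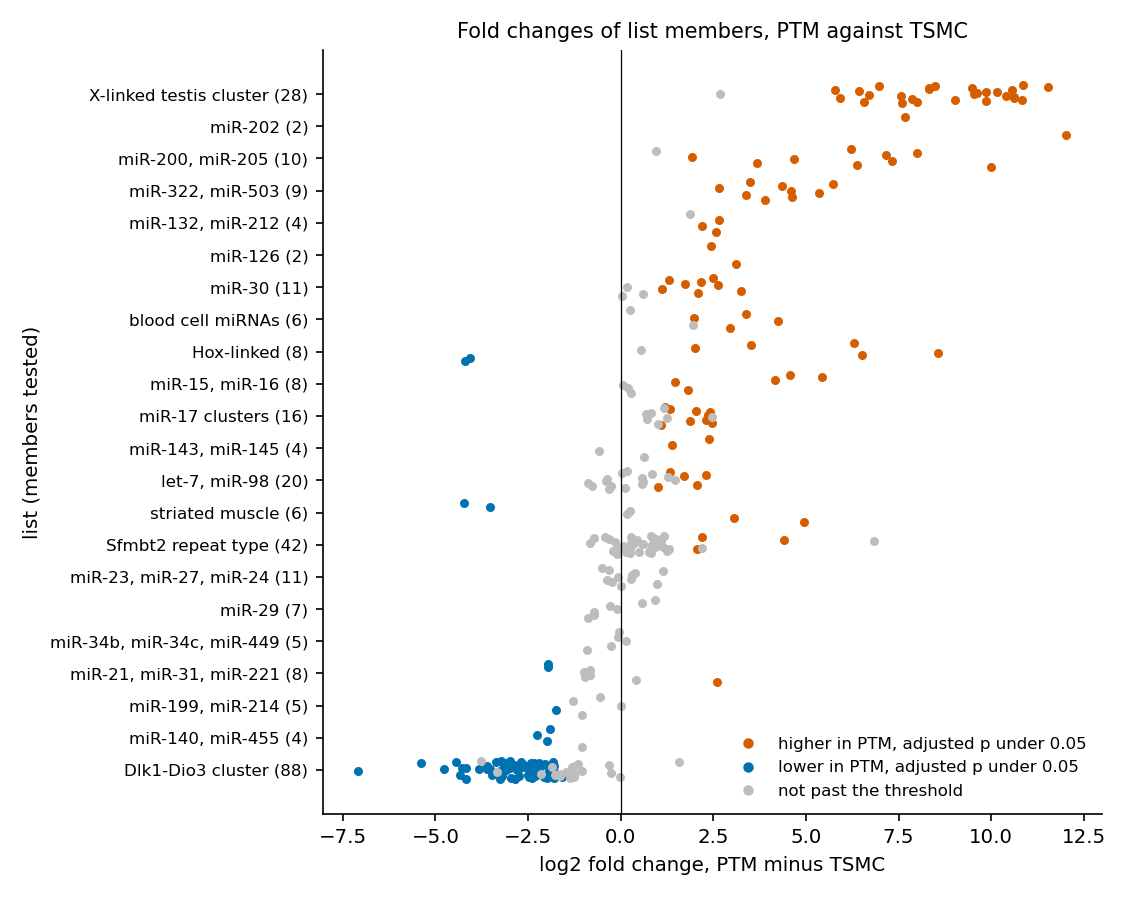
Log2 fold change of PTM cells minus TSMC (horizontal axis) for the tested members of 22 lists (vertical axis, number tested in brackets), 1 point per miRNA and coloured by the test. The X-linked testis cluster and miR-322 and miR-503 lie to the right, with medians of 8.74 and 4.34, the Dlk1-Dio3 cluster to the left at -2.41, and the Hox-linked list on both sides.

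The list of most abundant miRNAs in each type held members that passed and members that did not. let-7b-5p, of the let-7 family that holds back proliferation, had 124210 to 201920 CPM in PTM cells and 163130 to 221370 CPM in TSMC, and let-7c-5p 131180 to 290280 CPM in PTM cells and 124860 to 164730 CPM in TSMC. Neither passed (-0.27 ± 0.46 and 0.59 ± 0.48). miR-652-3p, at 112360, 98301 and 117720 CPM in PTM libraries against 46367, 27151 and 32985 CPM in TSMC libraries, was higher in PTM cells (1.62 ± 0.44, edgeR adjusted p = 0.0051). miR-22-3p and miR-181a-5p did not pass (0.59 ± 0.40 and 0.18 ± 0.32, the second of either sign depending on the scaling). In contrast to its main arm, miR-181a-2-3p was lower in PTM cells, at 98.1, 61.9 and 83.3 CPM in PTM libraries against 1106, 733 and 622 CPM in TSMC libraries (-3.34 ± 0.48, edgeR adjusted p = 1.0e-05). The let-7 and miR-98 entries together took 37.1% to 46.8% of mature tags in PTM cells and 42.4% to 51.1% in TSMC. The first and second TSMC libraries, at 47.6% and 42.4%, held almost no let-7e-5p tags, unlike the third at 51.1%.

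let-7e-5p, chosen after its values were seen, had 0.169 and 0.0994 CPM in the first and second TSMC libraries and 23692 CPM in the third, against 13705 to 29409 CPM in PTM cells. In those 2 TSMC libraries the summed table lay 1.01% and 1.12% below the library total, and in the third 0.0062%, so let-7e-5p levels in TSMC are uncertain. Under the rule of at least 100 CPM in 1 library and under a hundredth of that in another of the same type, 3 miRNAs were uneven in TSMC and 2 in PTM cells. Leaving out the 14 that were uneven in any type moved the calls to 171 higher and 180 lower, with 23 in the tracheal contrast.

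The other tag classes were compared as shares of all tags of a library, with exact two-sided permutation tests over 14 classes, for which 3 libraries against 3 cannot give a p below 0.10. Mature miRNAs took 38.7%, 45.4% and 29.9% in PTM libraries and 32.1%, 46.9% and 34.2% in TSMC libraries (exact p = 1). Tags of small nuclear RNAs, the RNAs of the spliceosome, took 0.0310%, 0.0436% and 0.0400% in PTM libraries, against 0.00743%, 0.00737% and 0.0107% in TSMC libraries, without overlap (exact p = 0.10, adjusted 0.70). Entries annotated as piRNAs, the small RNAs of the germ line, took 2.28%, 2.59% and 2.63% in PTM libraries, against 2.18%, 1.66% and 1.95% in TSMC libraries (exact p = 0.10, adjusted 0.70). Small nucleolar RNAs overlapped, at 0.186% to 0.347% in PTM cells and 0.315% to 0.669% in TSMC (exact p = 0.20).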

How the data were processed

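Small RNA libraries of mouse primary cells were analysed from 1 deposited table. Bowtie2 and mm10 are named per the submitters' processing notes; neither versions nor the treatment of tags matching several entries could be taken from the labels. The deposited values were whole-number tag counts per entry, made by the authors, beside a TPM column in which the authors scaled counts to 1 M tags over every class, with no correction for length. TPM served only to recover library totals. Totals exceeded summed counts by 0.0013% to 1.12% in PTM and TSMC libraries.

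Of 1556 mature entries, 846 reached 10 counts in 3 or more libraries. They were tested with edgeR 4.0.16 (TMM scaling, quasi-likelihood test with robust estimation) in a model of the 7 cell types over all 21 libraries, which left 14 residual degrees of freedom. The threshold was an adjusted p (Benjamini-Hochberg, 846 tests) under 0.05. Standard errors are those of the fit. Other settings were DESeq2 1.42.0, limma-voom 3.58.1, other scalings and filters, fewer libraries and a replicate block; leaving out unevenly counted miRNAs was added after seeing the data. On simulated counts for this comparison (815 miRNAs in the fit), 27 of 49 miRNAs changed by a log2 of 2 and 43 of 50 changed by 4 were called with the right sign, and 3 of 619 unchanged ones were called. The simulation gave all 7 types the same base profile and changed TSMC alone, in both directions. It therefore lacks the differences in make-up between the real types, and its rates may not hold for the real libraries.

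Named miRNAs were the 12 largest called changes in each direction with at least 50 CPM, up to 10 in each direction passing all 3 tracheal tests with at least 50 CPM, the 8 most abundant of each type, the 4 most abundant of each of 34 lists, and their other arms; others are said to be chosen after their values were seen. Members of lists with few tags are given by counts or left out. The members and lists were chosen with earlier results of these data known.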

Additional observations from a re-analysis of the deposited data

Results flagged for a closer look

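The tracheal contrast tests whether PTM cells differ from TSMC by another amount than from VSMC and ISMC, and 14 miRNAs under the naming rule passed it. The log2 fold change of TSMC against the mean of VSMC and ISMC was -5.03 for miR-196b-5p, -4.76 for miR-10b-5p, -3.62 for miR-204-5p, -3.34 for miR-126a-3p, -2.57 for miR-146a-5p and -2.55 for miR-126a-5p, which were low in TSMC. It was 4.02 for miR-499-5p, 3.77 for miR-338-3p, 2.90 for miR-338-5p, 2.86 for miR-184-3p, 2.37 for miR-455-3p and 2.22 for miR-455-5p. For miR-470-5p it was 2.12 and for the joint entry of miR-465a-3p, miR-465b-3p and miR-465c-3p 1.84. These were higher in TSMC than in VSMC and ISMC. Calls of miR-126a-5p, miR-470-5p and the joint miR-465 entry were lost without the third TSMC library (edgeR adjusted p = 0.13, 0.13 and 0.18). miR-499-5p rested on the first TSMC library (2.30 without it, edgeR adjusted p = 0.25), as did miR-338-3p (2.99, edgeR adjusted p = 0.20), which had 3.04, 1.49 and 0.162 CPM in TSMC libraries against at most 0.770 CPM in any VSMC or ISMC library. All 3 PTM libraries lay above all 3 TSMC libraries for each of the miRNAs low in TSMC, against 29.2% of all miRNAs tested. The same TSMC libraries enter both comparisons, so this was partly fixed by the choice of these miRNAs.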

How the results depend on the processing

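The 338 calls in PTM cells against TSMC stayed between 279 and 408 under all settings run, and 274 to 326 of them were called again in each setting. The split of higher against lower calls moved from 193 and 145 to 170 and 199 with RLE scaling, 171 and 193 with library totals, 151 and 177 with tags of all classes, 184 and 224 with DESeq2, 163 and 164 with no filter, and 171 and 180 without unevenly counted miRNAs. The 20 calls in TSMC against VSMC and ISMC became 33 with RLE scaling, 31 with at least 50 counts, 60 with DESeq2, 34 without germ cell libraries and 91 with only the types compared, and 13 to 24 when 1 library was left out. TSMC against VSMC went from 28 calls to 46 with tags of all classes, 114 with DESeq2, 47 with limma-voom, 77 without germ cell libraries and 129 with only the types compared, and to 14 to 29 when 1 library was left out. TSMC against ISMC went from 8 to 33 with DESeq2 and 25 with only the types compared. Same-numbered PTM and TSMC libraries did not deviate together (r = 0.093, 0.017 and -0.194), so the numbers were not taken to pair samples; the replicate block gave 319 calls, and 20 in the tracheal contrast.

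Of 81 named fold changes in PTM cells against TSMC, values near 0 changed sign. miR-15b-5p gave -0.30 with RLE scaling and DESeq2, -0.28 with library totals, -0.31 with tags of all classes, -0.26 with no filter, -0.21 without unevenly counted miRNAs and -0.089 to 0.17 without 1 library. miR-181a-5p gave -0.19 with RLE scaling and DESeq2, -0.14 with library totals, -0.21 with tags of all classes, -0.15 with no filter and -0.11 without unevenly counted miRNAs. miR-1a-3p gave -0.28 with RLE scaling, -0.16 with library totals, -0.13 with no filter, -0.29 with DESeq2, -0.12 without unevenly counted miRNAs and -0.32 to 2.13 without 1 library. miR-451a gave -0.039 with RLE scaling and DESeq2, -0.11 with tags of all classes, -0.083 with no filter, -0.47 with limma-voom, -0.15 with the replicate block, -0.021 without unevenly counted miRNAs and -1.50 to 0.70 without 1 library. Without 1 library, miR-143-5p gave -1.33 to 0.10 and miR-196a-1-3p -0.69 to 1.23. miR-206-3p in the tracheal contrast gave -0.18 with tags of all classes. The difference in the mature share, PTM minus TSMC, ran from -3.42 to 4.87 percentage points without 1 library. The causes were not tested. DESeq2 gave no adjusted p for 2 miRNAs (117 in TSMC against ISMC), which were left out of its counts. With 3 libraries a type, a log2 change of 1 was called in 1 of 49 simulated miRNAs, so differences of that size or less may mostly be missed here as well.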

Other observations

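Some miRNAs outside the naming rule also passed the tracheal contrast and were chosen after their values were seen. miR-504-5p had 7.02, 7.13 and 17.6 CPM in PTM libraries, against 55.6, 33.8 and 43.2 CPM in TSMC libraries, with 1.82 to 13.9 CPM over the 6 VSMC and ISMC libraries. Its tracheal call (2.41, edgeR adjusted p = 0.020) was lost with tags of all classes and without the second VSMC, the first TSMC or the third TSMC library (edgeR adjusted p = 0.063 to 0.11). miR-383-5p had 6.56, 9.73 and 3.10 CPM in PTM libraries and 8.28, 7.16 and 15.5 CPM in TSMC libraries, which overlapped, with 0.631 to 1.87 CPM in VSMC and 1.02 to 2.57 CPM in ISMC. miR-5114 had 32.1, 16.3 and 41.2 CPM in PTM libraries and no tag in TSMC libraries, at least 223-fold higher in PTM cells when 3 tags over the TSMC libraries are taken as the floor, and 0.0701 to 1.03 CPM over the 6 VSMC and ISMC libraries. Its tracheal call (edgeR adjusted p = 0.030) was lost without any 1 of the 3 TSMC libraries, the second VSMC or the third ISMC library (edgeR adjusted p = 0.058 to 0.13).

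Of the 72 seeds shared by at least 2 tested miRNAs with a RefSeq sequence, 5 held members called in both directions in PTM cells against TSMC. Besides the miR-10 seed these included GAGGUUG, chosen after its values were seen, where miR-672-5p had 1486, 1595 and 2042 CPM in PTM libraries, against 28.2, 24.6 and 32.8 CPM in TSMC libraries, and miR-377-5p of the Dlk1-Dio3 cluster had 16.6, 12.9 and 10.9 CPM in PTM libraries, against 136, 105 and 130 CPM in TSMC libraries.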
